A study of Hordeum vulgare with 12 samples.

Results

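Of the 26073 genes counted in the barley stem base, 3 are described here: the cryptochrome genes CRY1b (MLOC_64083) and CRY2 (MLOC_8289), and MLOC_14118, described in the annotation as circadian clock associated 1 and called CCA1 below. They were chosen by identifier, with their difference between the ages of wild-type seedlings already known, so that difference is given as a description without a test. All 3 passed the filter on low counts, as did 20212 genes in all. The functional category of MLOC_14118 is the REVEILLE group of MYB-related factors, to which CCA1 is closely related, so the name CCA1 follows the description alone. Its annotation was not checked against a protein sequence, and positions of the 3 genes are not given because their identifiers had 0 matches in the RefSeq gene table used here.

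Cryptochromes are flavoproteins that absorb blue light. In Arabidopsis, CRY1 and CRY2 act in seedling de-etiolation and in the timing of flowering, and they pass light signals to the circadian clock. CCA1 is a MYB-related repressor of the Arabidopsis clock whose transcript peaks around dawn. Pseudo-response regulators repress CCA1 later in the day, and proteins of the ZEITLUPE (ADO) family are blue light receptors that mark clock proteins for degradation.

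RNA was sequenced from stem bases of cv. Golden Promise, the segment from which crown roots emerge, in 3 libraries for each of 4 groups. The wild type was sampled at 1 day after germination (1DAG) and at 10DAG, and so was barley overexpressing AtCKX1, which comes from Arabidopsis and encodes a cytokinin dehydrogenase that degrades the hormone cytokinin. All groups received the same grain sterilization, dark cold treatment and germination in long days. The methods of the study describe the wild-type libraries and not those of AtCKX1. In the methods each library came from pooled seedlings, and the older seedlings stood in hydroponic medium while the younger ones lay on wet paper. The excised segment was longer at 10DAG by the methods, whereas the sample labels give 1 length for all libraries. Age and medium cannot be told apart, nor can segment length if it differed. The sources used here give neither the promoter of the transgene, the number of AtCKX1 lines in a library nor the hour of harvest, and clock transcripts vary over the day. A difference between groups in hour of harvest and a difference in genotype or age cannot be told apart for these genes.

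The libraries held 36100002 to 51997655 reads assigned to genes (median 42479783). The transgene had 0 counts in each of the 6 wild-type libraries, and in the AtCKX1 libraries it had 16, 11 and 18 counts at 1DAG and 42, 7 and 12 at 10DAG. It was thus seen only in the libraries labelled as AtCKX1. These few reads do not by themselves show overexpression. Wild-type 1DAG replicate 1 stood apart from its group, with a median gene difference of 0.42 and 0.49 on the log2 scale from the other two libraries, which differed from each other by 0.22. Values without this library are given below for some comparisons. In bulk RNA, more transcript per cell and more cells of an expressing type cannot be told apart. The summed level of 12 photosynthesis genes, taken as markers of green tissue, ranged from 168 to 290 CPM (reads of a gene scaled to a common library size) in wild-type 1DAG, 881 to 1055 in wild-type 10DAG, 194 to 223 in AtCKX1 1DAG and 1218 to 1308 in AtCKX1 10DAG. PsbR, a photosystem II gene, made up 60.0% of the sum in wild-type 10DAG and 70.9% in AtCKX1 10DAG. The other 11 genes summed to 334 to 437 CPM in wild-type 10DAG and 341 to 390.0 CPM in AtCKX1 10DAG, which overlapped. These 12 genes were all drawn from the study's own list of genes higher at 10DAG in the wild type. That choice favours high values in wild-type 10DAG.

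The study designed quantitative PCR primers for the transcripts of both cryptochromes. They are shown because they identify by sequence the transcripts behind the 2 names. CCA1 had none in the primer list.
CRY1b forward primer: cgtgtggagcaatgaggg
CRY1b reverse primer: aatctgaggtgtgcaaggag
CRY2 forward primer: aaagatggaagacacaggctc
CRY2 reverse primer: actgaagacgaacaagatggg

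The first question was how the levels varied among the groups. CRY1b was at 107, 109 and 136 CPM in the wild-type 1DAG libraries and at 174, 168 and 205 CPM in those of 10DAG. In the AtCKX1 libraries it was at 109, 137 and 117 CPM at 1DAG and at 190.1, 191 and 194 CPM at 10DAG. The 6 libraries of 10DAG all lay above the 6 of 1DAG, whichever the genotype, while the genotypes overlapped at each age. Of all genes tested, 57.3% had ages that did not overlap in the wild type and 70.1% in AtCKX1. The share with 6 libraries against 6 apart was not computed. The group means were 117 ± 16.0 (SD, n = 3) in wild-type 1DAG, 121 ± 14.2 in AtCKX1 1DAG, 182 ± 19.7 in wild-type 10DAG and 192 ± 2.12 in AtCKX1 10DAG. In that order, the neighbours of the same age overlapped and the step between the ages did not. The AtCKX1 10DAG libraries varied by a coefficient of variation of 1.11%, close to the 1.09% that counting alone gives at this depth, and the other groups by 10.8% to 13.7%.

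CRY2 was at 43.6, 48.8 and 41.8 CPM in wild-type 1DAG and at 71.3, 81.1 and 114 CPM in wild-type 10DAG. In AtCKX1 it was at 51.0, 46.5 and 54.3 CPM at 1DAG and at 80.4, 71.4 and 82.8 CPM at 10DAG. As for CRY1b, the 10DAG libraries all lay above those of 1DAG and the genotypes overlapped at both ages. The means were 44.8 ± 3.65 (SD, n = 3) in wild-type 1DAG, 50.6 ± 3.90 in AtCKX1 1DAG, 78.2 ± 6.02 in AtCKX1 10DAG and 88.9 ± 22.5 in wild-type 10DAG. The wide spread of the last group came with its replicate 3, the highest library for CRY2.

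CCA1 was at 36.5, 40.4 and 53.2 CPM in wild-type 1DAG and at 115, 125 and 100.4 CPM in wild-type 10DAG. In AtCKX1 it was at 43.7, 60.3 and 47.4 CPM at 1DAG and at 451, 549 and 364 CPM at 10DAG. The 1DAG groups overlapped, the wild-type 10DAG libraries stood above them, and the AtCKX1 10DAG libraries stood above all others. The share of all genes with this order was not computed. The means were 43.3 ± 8.73 (SD, n = 3) in wild-type 1DAG, 50.5 ± 8.73 in AtCKX1 1DAG, 113 ± 12.1 in wild-type 10DAG and 455 ± 92.3 in AtCKX1 10DAG. The lowest AtCKX1 10DAG library had 13858 reads of this gene and the highest 27506, so that counting error was 0.699% of the level there, against a spread between libraries of 20.3%. Among all genes tested, the level of CCA1 ran from percentile 70.8 in the lowest library to 99.1 in the highest, that of CRY2 from 72.1 to 90.1 and that of CRY1b from 90.1 to 95.6. These percentiles use CPM, which do not account for gene length, so levels of the 3 genes are not compared with each other.

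**Figure D1:**
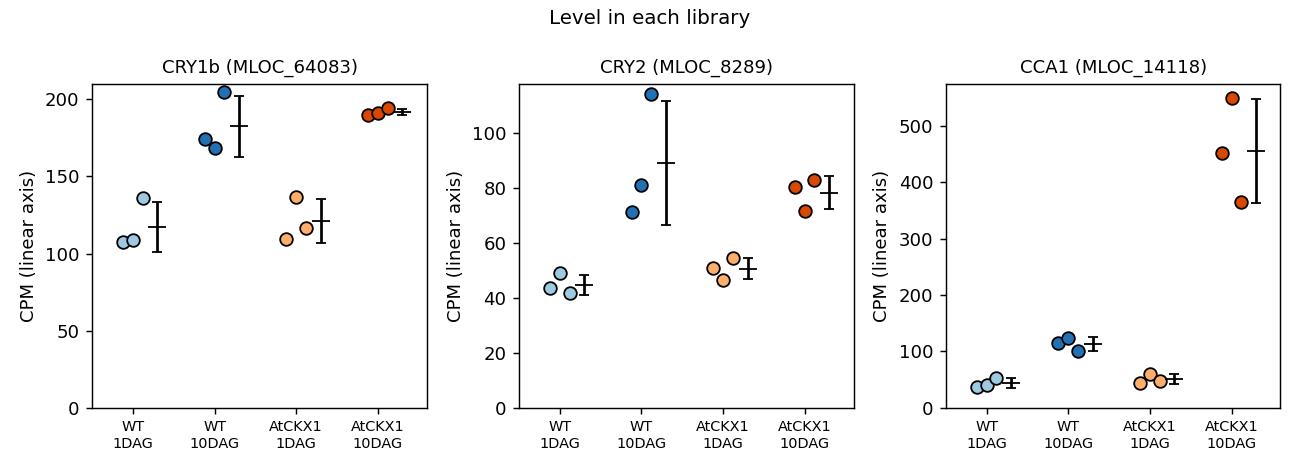
Level of CRY1b, CRY2 and CCA1 in each of the 12 libraries, in CPM on a linear axis from 0. Circles are libraries, the bar beside them is the mean and SD of 3 libraries. Both cryptochromes are higher at 10DAG in either genotype, and the 3 AtCKX1 10DAG libraries of CCA1, at 364 to 549 CPM, stand above all others. The share of all genes with such separations was not computed.

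The age difference of the wild type was fitted on its own 6 libraries, and for the 3 genes it is a description. CRY1b was 1.59-fold higher at 10DAG (log2 0.67, SE 0.15), CRY2 was 2.03-fold higher (1.02, SE 0.19) and CCA1 was 2.68-fold higher (1.42, SE 0.18). Of the 19773 genes tested in these libraries, 42.7% passed the test (edgeR quasi-likelihood, Benjamini-Hochberg adjusted p of at most 0.05), 21.7% as higher and 21.1% as lower at 10DAG, and 57.3% had ages that did not overlap. Because the 3 genes were chosen with this contrast known, nothing is read from their place in that background. Without wild-type 10DAG replicate 3 the log2 difference of CRY2 was 0.73. Without wild-type 1DAG replicate 1, the library that stood apart, CRY1b was at 0.55, CRY2 at 0.94 and CCA1 at 1.25.

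In AtCKX1 plants all 3 genes rose from 1DAG to 10DAG. CRY1b was 1.59-fold higher (log2 0.67, SE 0.12, edgeR adjusted p = 0.000976). CRY2 was 1.55-fold higher (log2 0.63, SE 0.16, edgeR adjusted p = 0.00567). CCA1 was 9.01-fold higher (log2 3.17, SE 0.20, edgeR adjusted p = 1.51e-06), with an approximate 95% interval from 6.53- to 12.4-fold. The 3 AtCKX1 10DAG libraries lay above the 3 AtCKX1 1DAG libraries for each gene. The background was high in this comparison, since 53.8% of 20212 genes passed the test, 25.8% as higher and 28% as lower, and 70.1% had ages that did not overlap. Calls of this kind were thus common, and the change of CCA1 was larger in size than that of 96.5% of the genes tested. Neither cryptochrome reached the 2-fold limit that the study used for its own calls.

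The genotype comparisons use the wild-type libraries whose age difference was known when the 3 genes were chosen. At 1DAG the genotypes did not differ beyond the spread between libraries for any of the 3 genes. CRY1b was at a log2 difference, AtCKX1 minus wild type, of 0.04 (SE 0.12, edgeR adjusted p = 0.848). CRY2 was at 0.18 (SE 0.16, edgeR adjusted p = 0.520) and CCA1 at 0.22 (SE 0.19, edgeR adjusted p = 0.501). The approximate 95% intervals of the log2 difference ran from -0.24 to 0.33 for CRY1b, from -0.18 to 0.54 for CRY2 and from -0.21 to 0.65 for CCA1. All 3 genes overlapped between the genotypes, in a comparison where 0.569% of genes passed the test (0.213% as higher) and 21.4% did not overlap. The sign of the CRY1b difference turned with upper-quartile scaling (-0.017) and without the library that stood apart (-0.035). Without that library CRY2 was at 0.14 and CCA1 at 0.090.

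At 10DAG CCA1 differed between the genotypes and the cryptochromes did not pass the test. CCA1 was 4.01-fold higher in AtCKX1 than in the wild type (log2 2.01, SE 0.19, edgeR adjusted p = 0.000402), with an approximate 95% interval from 2.95- to 5.46-fold. It was higher in 3 of 3 AtCKX1 libraries than in any wild-type library of that age, whereas 1.79% of genes passed the test, 1.07% in the higher direction, and 23.7% did not overlap. By p it was number 16 of 20212 genes, and by size of change number 35 among the genes that passed in the higher direction. CRY1b was at a log2 difference of 0.07 (SE 0.12, edgeR adjusted p = 0.857, interval -0.21 to 0.36). CRY2 was at -0.18 (SE 0.16, edgeR adjusted p = 0.659, interval -0.54 to 0.17), and at 0.036 without wild-type 10DAG replicate 3. Of the 12 photosynthesis genes, 1 passed the test as higher in AtCKX1 10DAG (RbcX, a Rubisco assembly factor) and 1 as lower (ferredoxin-6), with a list median of -0.095. PsbR had 828 to 960.2 CPM in AtCKX1 10DAG and 511 to 618 CPM in wild-type 10DAG and did not pass (edgeR adjusted p = 0.510), and without it the sum of the list overlapped between the genotypes. All 12 genes were drawn from the study's list of genes higher at 10DAG in these same wild-type libraries. That choice lowers the difference, so equal green tissue is not read from the counts, the median or the sums. The part of green tissue in the CCA1 difference was not tested.

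The age effects were compared between the genotypes by an interaction term, which shares its wild-type arm with the contrast known when the genes were chosen and its AtCKX1 libraries with the comparisons above. In the same fit of 12 libraries, the age effect of CCA1 was 1.39 (log2) in the wild type and 3.17 in AtCKX1. The difference was 1.78 (SE 0.26, edgeR adjusted p = 0.0146), where 0.529% of genes passed the test, 0.435% in the higher and 0.094% in the lower direction. This call was lost without wild-type 10DAG replicate 1 (difference 1.79, edgeR adjusted p = 0.0539) and without AtCKX1 1DAG replicate 3 (1.74, edgeR adjusted p = 0.0699), and without the library that stood apart the difference was 1.92 (edgeR adjusted p = 0.00873). CRY1b had age effects of 0.64 in the wild type and 0.67 in AtCKX1, a difference of 0.03 (SE 0.18, edgeR adjusted p = 0.977, interval -0.38 to 0.43). CRY2 had 0.99 and 0.63, a difference of -0.36 (SE 0.22, edgeR adjusted p = 0.818, interval -0.87 to 0.15).

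Ratios of counts within a library do not depend on depth or scaling, and only their change between libraries is read here, because the genes may differ in length. For 1 read of CRY1b there were 0.339, 0.372 and 0.391 reads of CCA1 in the wild-type 1DAG libraries and 0.661, 0.739 and 0.490 in those of 10DAG. In AtCKX1 there were 0.399, 0.441 and 0.407 at 1DAG and 2.37, 2.87 and 1.88 at 10DAG. The ratio was thus higher in the 3 AtCKX1 10DAG libraries (1.88 to 2.87) than in the other 9 (0.339 to 0.739). The ratio of CCA1 to CRY2 showed the same separation, with 4.40 to 7.69 in AtCKX1 10DAG and 0.827 to 1.61 in the other groups. The ratio of CRY2 to CRY1b stayed between 0.308 and 0.557 in all 12 libraries, and each group overlapped with every other. Its means were 0.388 ± 0.0725 (SD, n = 3) in wild-type 1DAG, 0.483 ± 0.0737 in wild-type 10DAG, 0.424 ± 0.0726 in AtCKX1 1DAG and 0.407 ± 0.0298 in AtCKX1 10DAG.

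**Figure D2:**
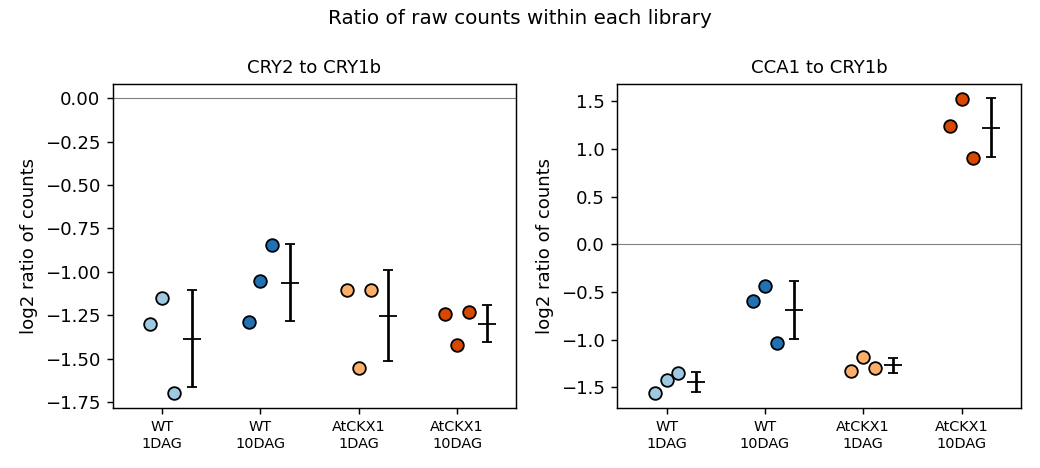
Ratio of raw counts within each library, on a log2 axis where 0 is a ratio of 1. Circles are libraries, the bar beside them is the mean and SD of 3 libraries. The ratio of CRY2 to CRY1b overlaps among the 4 groups, and that of CCA1 to CRY1b is higher in the 3 AtCKX1 10DAG libraries than in all others. The line at 0 has no meaning of its own, because the genes may differ in length.

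A list of 9 other clock and light genes was taken from the readable part of the study's list of genes higher at 10DAG in these same wild-type libraries. Genes high in wild-type 10DAG or low in wild-type 1DAG were favoured by this choice, so the list is no independent evidence in any comparison that uses these libraries, least of all for the wild-type ages, where all 9 were higher with a median log2 difference of 1.26 (0.0065 over all genes). In AtCKX1, 6 of the 9 rose with age, 0 fell and 3 did not pass the test, with a median of 1.23 (-0.0089 over all genes), in the comparison where 25.8% of all genes passed as higher and 28% as lower. Those that rose were ELF3, BLUS, WEB1, 2 genes with B-box zinc fingers (BBX-DBB and BBX-CO) and a CONSTANS-like gene (COL). BLUS had few reads, 2, 1 and 4 in the AtCKX1 1DAG libraries and 38, 64 and 16 in those of AtCKX1 10DAG. ELF3 (MLOC_75281), a component of the evening complex of the clock in Arabidopsis, rose 2.00-fold (log2 1.00, SE 0.11, edgeR adjusted p = 3.00e-05), from 15.8 to 17.9 CPM at 1DAG to 31.9 to 33.9 CPM at 10DAG. WEB1 (MLOC_15579), which acts in chloroplast movement under blue light, rose 2.35-fold. BBX-CO (MLOC_22698), a gene with B-box and CCT domains, rose 8.78-fold, from a mean of 5.28 to 46.4 CPM.

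The 3 that did not pass were a pseudo-response regulator (PRR, MLOC_62596), an ADO gene (MLOC_53725) and a REVEILLE MYB gene (RVE, MLOC_62877). PRR was at 112, 122 and 113 CPM in AtCKX1 1DAG and at 138, 85.4 and 121 CPM in AtCKX1 10DAG (log2 -0.01, SE 0.18, edgeR adjusted p = 0.957). The ages overlapped, and the sign of this value turned under several alternatives. In the wild type PRR was at 75.9, 94.9 and 113 CPM at 1DAG and at 202, 175 and 231 CPM at 10DAG. ADO was at 55.8, 54.2 and 63.0 CPM in AtCKX1 1DAG and at 61.0, 25.9 and 60.0 CPM in AtCKX1 10DAG (log2 -0.24, SE 0.27, edgeR adjusted p = 0.489). Its wild-type libraries were at 39.8, 50.8 and 60.2 CPM at 1DAG and at 105, 94.0 and 127 CPM at 10DAG. Both genes thus had AtCKX1 10DAG libraries in or below the range of the 1DAG libraries, apart from PRR in replicate 1, which was above it.

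RVE was at 3.35, 2.63 and 3.37 CPM in AtCKX1 1DAG and at 1.14, 0.639 and 2.87 CPM in AtCKX1 10DAG, 32 to 109 reads at the older age. The difference did not pass the test (log2 -1.02, SE 0.42, edgeR adjusted p = 0.0576). It did pass without AtCKX1 10DAG replicate 3 (-1.81, edgeR adjusted p = 0.000952) and with DESeq2 (-0.98, adjusted p = 0.0349). In the wild type RVE was at 4.71, 4.01 and 5.45 CPM at 1DAG and at 9.06, 8.87 and 11.7 CPM at 10DAG. The AtCKX1 10DAG library with the highest CCA1, replicate 2, had the lowest PRR, ADO and RVE of its group. It also had the lowest CRY2 (71.4 CPM), ELF3 (31.9), WEB1 (48.8) and BBX-DBB (19.9), so this was not particular to PRR, ADO and RVE. It had the highest BLUS, and its CRY1b, BBX-CO and COL lay between the other libraries.

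**Figure D3:**
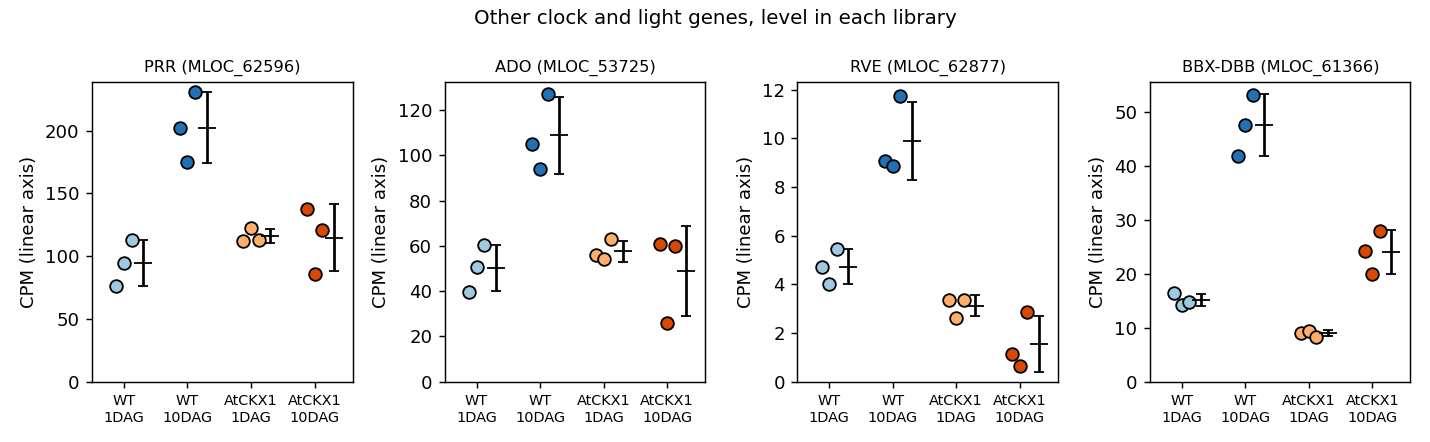
Level of 4 other clock and light genes in each of the 12 libraries, in CPM on a linear axis from 0. Circles are libraries, the bar beside them is the mean and SD of 3 libraries. PRR, ADO, RVE and BBX-DBB are each lower in the 3 AtCKX1 10DAG libraries than in the 3 wild-type 10DAG libraries, and only RVE and BBX-DBB passed the test. Of the list genes not shown, COL lies higher without overlap, and ELF3, WEB1, BBX-CO and BLUS overlap. Of all genes, 23.7% did not overlap, and the list favoured genes high in wild-type 10DAG.

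Between the genotypes at 10DAG, 0 of the 9 genes were higher, 2 were lower and 7 did not pass the test, where 0.722% of all genes passed as lower. The list's median log2 difference was -0.82 (-0.0097 over all genes), from which nothing is read, because genes high in these wild-type libraries were favoured when the list was made and that choice lowers the difference. RVE was 6.43-fold lower in AtCKX1 (log2 -2.69, SE 0.43, edgeR adjusted p = 0.00949), and BBX-DBB (MLOC_61366), a B-box zinc finger gene, was 1.98-fold lower (log2 -0.98, SE 0.14, edgeR adjusted p = 0.00464). BBX-DBB was at 24.2, 19.9 and 27.9 CPM in AtCKX1 10DAG and at 41.8, 47.6 and 53.2 CPM in wild-type 10DAG, and RVE and BBX-DBB each did not overlap between the genotypes. PRR was at -0.82 (SE 0.19, edgeR adjusted p = 0.0521) and ADO at -1.15 (SE 0.28, edgeR adjusted p = 0.0639). Neither passed, and with DESeq2 both did (adjusted p = 0.00324 and 0.0031). Both also passed without wild-type 1DAG replicate 1, the library that stood apart (edgeR adjusted p = 0.0205 and 0.0376). Over the 22 alternatives PRR passed in 7 and ADO in 2. Both lay lower in AtCKX1 without overlap, while COL (MLOC_77036) lay higher without overlap, at 6.28, 5.45 and 5.31 CPM in AtCKX1 10DAG and 2.92, 4.34 and 2.95 CPM in wild-type 10DAG (log2 0.74, SE 0.35, edgeR adjusted p = 0.382). Of all genes, 23.7% did not overlap in this comparison. The call of RVE was lost in a fit of the 6 libraries at 10DAG (edgeR adjusted p = 0.0572) and without AtCKX1 10DAG replicate 1 (0.0545).

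At 1DAG 0 of the 9 were higher and 2 were lower in AtCKX1, with a median of -0.34 (0.033 over all genes), where 0.356% of all genes passed as lower. BBX-DBB was at -0.76 (SE 0.14, edgeR adjusted p = 0.0418) and BBX-CO at -1.63 (SE 0.31, edgeR adjusted p = 0.0451). BBX-CO was at 6.31, 5.77 and 3.76 CPM in AtCKX1 1DAG and at 24.3, 11.9 and 12.9 CPM in wild-type 1DAG, the highest being the wild-type library that stood apart. Each of these calls was lost in 14 of 22 alternatives, among them the fit without the library that stood apart (edgeR adjusted p = 0.0847 for BBX-DBB and 0.0815 for BBX-CO), and both kept their direction. In the interaction 0 of the 9 passed the test, and the list median was -0.14 (-0.029 over all genes). BLUS was at 1.41, BBX-CO at 1.28, COL at 1.08 and WEB1 at 0.002, while BBX-DBB was at -0.23 and ELF3 at -0.14. The list favoured genes that rose with age in the wild type. That choice lowers the interaction, so nothing is read from its direction in these genes. The lowest values were -1.11 for PRR (SE 0.26, edgeR adjusted p = 0.125), -2.09 for RVE (SE 0.58, edgeR adjusted p = 0.247) and -1.35 for ADO (SE 0.39, edgeR adjusted p = 0.279), none past the threshold after adjustment over all genes. Their approximate 95% intervals, not adjusted for the number of genes, ran from -1.72 to -0.51 for PRR, from -3.42 to -0.75 for RVE and from -2.24 to -0.46 for ADO. With DESeq2, PRR and RVE passed (adjusted p = 0.0104 and 0.0256), and without AtCKX1 10DAG replicate 3 RVE passed (-2.87, edgeR adjusted p = 0.0154).

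**Figure D4:**
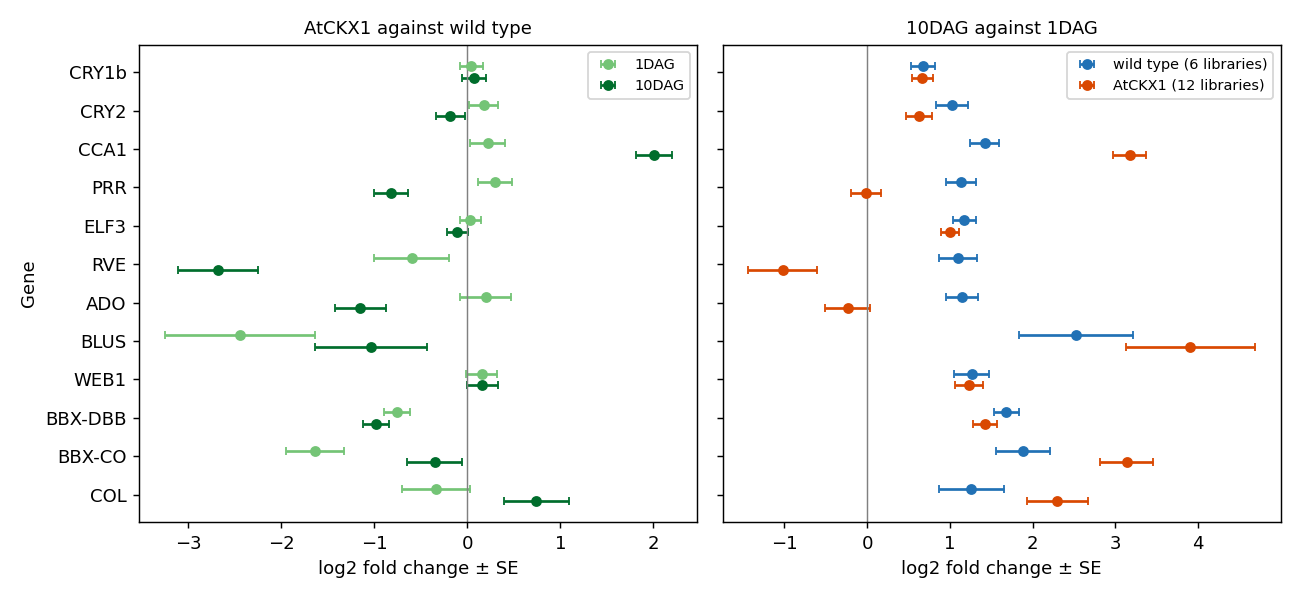
Log2 fold changes with their standard errors for the 3 genes and the 9 other clock and light genes, AtCKX1 against wild type at each age on the left and 10DAG against 1DAG in each genotype on the right. The wild-type ages come from the fit of 6 libraries and all else from the fit of 12. Between the genotypes at 10DAG, CCA1 is at 2.01, PRR, RVE and ADO are at -0.82, -2.69 and -1.15, and the cryptochromes lie near 0. Of PRR, RVE and ADO only RVE passed the test. The other list genes run from -1.03 (BLUS, a gene with few reads) to 0.74 (COL).

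The genes whose pattern over the 12 libraries was most like each of the 3 were found by the root mean square difference of log2 CPM, each gene centred on its own mean, among 20211 other genes, and no test was made. For CRY1b the nearest was MLOC_5355 (difference 0.056), which had no function in the sources and went from 24.7 ± 2.71 CPM (SD, n = 3) in wild-type 1DAG to 36.9 ± 2.57 in wild-type 10DAG and from 26.0 ± 2.00 to 41.3 ± 1.15 in AtCKX1. Functions here and below came only from the study's list of genes higher at 10DAG in these same wild-type libraries. Every gene with a function was thus chosen as rising with age, and any gene off that list counts as without a function. Among the 991 genes with a function, the nearest to CRY1b were MLOC_58427, assigned to the peroxisome import component Pex13 (0.185), MLOC_67615, assigned to the immune regulator EDS1 (0.189), and MLOC_25947, a RING-type ubiquitin ligase (0.203). The first of these was number 724 in likeness among all genes. CRY2 was number 1242 in likeness to CRY1b (0.221).

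For CRY2 the nearest was MLOC_80549 (0.102), without a function in the sources. With a function they were MLOC_55325, a cation exchanger (0.143), MLOC_57149, a derlin of protein degradation at the endoplasmic reticulum (0.166), and MLOC_71188, the gamma subunit of the Sec61 translocon (0.172). CRY1b was number 420 in likeness to CRY2.

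For CCA1 the nearest was MLOC_38649 (0.285), without a function in the sources. It was at 2.62 ± 0.173 CPM (SD, n = 3) in wild-type 1DAG, 6.91 ± 0.60 in wild-type 10DAG, 3.14 ± 0.783 in AtCKX1 1DAG and 22.6 ± 3.83 in AtCKX1 10DAG, which is the same order of groups as for CCA1. With a function they were MLOC_68896, a basic helix-loop-helix factor (0.437), MLOC_55589, assigned to the chloroplast positioning factor CHUP (0.473), and RbcX (MLOC_68131, 0.517), one of the photosynthesis genes. MLOC_68896 was low, with group means from 0.248 CPM in AtCKX1 1DAG to 2.37 CPM in AtCKX1 10DAG. MLOC_55589 was at 15.05 ± 7.51 CPM in wild-type 1DAG, 59.7 ± 12.2 in wild-type 10DAG, 13.2 ± 2.64 in AtCKX1 1DAG and 132 ± 2.44 in AtCKX1 10DAG. In likeness to CCA1, CRY1b was number 2688 (1.07) and CRY2 number 3223 (1.11) of the 20211 genes. The difference is not scaled to how far a gene varies, and CCA1 varied more than the cryptochromes. The distances of the nearest genes are therefore not compared among the 3.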

How the data were processed

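Raw counts of reads per gene were used as deposited, with no normalization by the authors, who per the labels and methods mapped reads to the Morex genome using TopHat and counted them with HTSeq 0.6.0, strand-aware in the methods. Rows of reads outside genes were left out (22.1% to 24.4% of reads). The other summary rows were left out too, among them reads without a unique alignment (7.02% to 10.3%). Groups were taken from the labels. Methods describe the wild-type replicates as independent.

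Counts were filtered (filterByExpr), scaled by TMM and compared with edgeR 4.0.16 in R 4.3.3 (robust quasi-likelihood fit, Benjamini-Hochberg adjusted p over all genes tested). The wild-type ages were fitted in 6 libraries, the rest in 1 fit of 12 libraries. SE was taken as the log2 fold change over the root of F, and intervals use 8 residual degrees of freedom, so both are approximate. The study's fold limit of 2 was not part of the call. An exact permutation test of 3 against 3 cannot go below 0.1, so none was used. The procedure was tested on simulated data.

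The genes named were the 3 genes, the transgene, the 9 clock and light genes and the nearest genes by the rule given. RbcX and ferredoxin-6 were named after their values were seen. The members and lists were chosen with earlier results of these data known. Functions came from the part of the study's list of genes higher at 10DAG that could be read. Alternatives were DESeq2 1.42.0, other scalings and filters, a replicate block, a fold limit, fewer libraries and each library left out. Primer sequences came from the study's primer list. The quantitative PCR was not analysed here.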

Additional observations from a re-analysis of the deposited data

Results flagged for a closer look

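The age effect of CCA1 differed between the genotypes, by the interaction test. It was 1.78 higher in AtCKX1 than in the wild type on the log2 scale (SE 0.26, edgeR adjusted p = 0.0146), with an approximate 95% interval from 1.17 to 2.40. Of all genes, 0.529% passed this test. The call was lost without wild-type 10DAG replicate 1 (edgeR adjusted p = 0.0539) and without AtCKX1 1DAG replicate 3 (edgeR adjusted p = 0.0699). The wild-type arm of the test was known when CCA1 was chosen. All 3 AtCKX1 10DAG libraries were above all 9 others, and the share of all genes with such a separation was not computed.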

How the results depend on the processing

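For the 3 genes, 246 of 261 values of the tested comparisons kept their direction and their side of the threshold under an alternative, and 47 of 48 values of the wild-type ages, which have no test, moved by less than the spread between replicates. The comparisons of CCA1 between AtCKX1 ages (2.99 to 3.32) and between genotypes at 10DAG (1.84 to 2.14) passed in all 22 alternatives. A 2-fold limit ended the calls of CRY1b (0.67) and CRY2 (0.63) between AtCKX1 ages. Upper-quartile scaling turned the sign of CRY1b between genotypes at 1DAG (-0.017), as did leaving out wild-type 1DAG replicate 1 and wild-type 10DAG replicate 2 together (-0.024), a pair named by an earlier analysis of these data, of which the first alone stood apart from its group here. Without that pair the interaction of CCA1 was 1.99. With each library left out in turn, CRY2 between wild-type ages ranged from 0.73 to 1.16, CRY1b between genotypes at 1DAG from -0.0504 to 0.17, CRY2 at 10DAG from -0.32 to 0.036, and the interaction from -0.0928 to 0.12 for CRY1b and from 1.61 to 1.93 for CCA1, with adjusted p up to 0.0699.

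Of the list, PRR between AtCKX1 ages was at 0.034 with DESeq2, 0.027 with upper-quartile scaling, 0.048 with library totals, 0.025 with at least 10 counts in every library, 0.022 without the pair, and -0.19 to 0.13 with a library left out. ADO there ranged from -0.46 to 0.041 with a library left out. ELF3 between genotypes at 1DAG was at -0.027 with upper-quartile scaling, -0.031 without the pair and -0.043 to 0.13 with a library left out. WEB1 in the interaction was at -0.11 without the pair and -0.13 to 0.23 with a library left out. With DESeq2, PRR (-1.09, adjusted p = 0.0104) and RVE (-2.07, adjusted p = 0.0256) passed in the interaction.

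Counts of genes passed moved by over 1.5 times as follows. At 1DAG the genotypes gave 115 genes, 985 with DESeq2, 26 with the count minimum, 64 with the replicate block, 42 in 6 libraries and 51 to 287 with a library left out. At 10DAG they gave 362 genes, 1031 with DESeq2, 235 with the block and 149 to 974 with a library left out. The 974 came without wild-type 1DAG replicate 1, the library that stood apart. The interaction gave 107, 349 with DESeq2, 47 with the block and 34 to 133 with a library left out. The 2-fold limit left 5142 of 8447 genes between wild-type ages and 5664 of 10866 between AtCKX1 ages. The cause was not tested.

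Replicate numbers did not pair the samples: the deviations of libraries with the same number correlated at -0.34 to 0.36 over 18 pairs, and those with different numbers at -0.42 to 0.35 over 36. With the replicate number as a block, CCA1 was at 3.17 between AtCKX1 ages, 2.00 between genotypes at 10DAG and 1.79 in the interaction (edgeR adjusted p = 0.0272), CRY1b at 0.67 and CRY2 at 0.63 between AtCKX1 ages, and no call of the 3 genes changed. Of the list, RVE passed between AtCKX1 ages with the block (-1.17, edgeR adjusted p = 0.0174), and the calls of BBX-DBB (edgeR adjusted p = 0.0960) and BBX-CO (0.0891) at 1DAG were lost.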
